A study of Mus musculus with 24 samples.

Results

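The genes of myelin and of the cells that make it were followed in RNA from the cerebellum of mice without Thumpd1. The group held 9 of the 55450 genes in the count table, namely Mbp, Mog, Mag, Mobp, Cnp, Mal, Opalin, Ermn and Olig2. They were taken by symbol from a list of genes of this lineage, chosen with earlier results of these data known. Each symbol matched 1 row. All 9 passed the filter on low counts in cerebellum, 4 passed in testes and 2 in liver.

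Oligodendrocytes are the glial cells that wrap axons of the brain and spinal cord in myelin, a stack of membrane that speeds the nerve impulse. In the cerebellum most of this myelin lies in the white matter core of each folium and around the axons of Purkinje cells. Precursor cells divide and migrate, then leave the cell cycle and switch on the myelin genes under transcription factors such as Sox10, Olig2 and Myrf. The membrane layers are held together on their inner faces by basic proteins, while other proteins sit in the looser edges of the sheath, next to the axon or on its outermost surface.

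The study sequenced RNA of 3 tissues, the cerebellum, the liver and the testes, in wild-type controls (WT) and in mice whose Thumpd1 was disrupted by Cas9 editing (KO). Thumpd1 is the tRNA-binding partner that Nat10 needs to acetylate a cytidine in serine and leucine tRNAs, and the comparison asks what its loss does to gene expression in each tissue. The edit was made in C57BL/6N eggs and the line backcrossed to C57/BL6, so the KO was present in all cells and not in oligodendrocytes alone. Each of the 6 groups (WT cerebellum, KO cerebellum, WT liver, KO liver, WT testes and KO testes) had 4 libraries, from mice of 6 to 12 weeks, with littermates matched for age as the controls. The age and sex of the mouse behind each library were not used here.

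Levels are given as CPM, the count of a gene scaled to a library total of 1000000, and a gene passed the filter of a tissue with at least 1 CPM in at least 4 of its libraries. In WT mice Mbp and Cnp, the 2 members that passed in both cerebellum and liver, were higher in cerebellum by limma-voom over all 24 libraries, as were 42.5% of the 22629 genes tested. Against testes the 4 members that passed in both, Mbp, Mag, Cnp and Mal, were higher in cerebellum, as were 38.6% of genes. Fitted on only the genes that passed in both tissues, these members were again higher, beside 45.3% of genes against liver and 45.5% against testes. The other members did not pass in the second tissue, so the filter fixed their direction and their levels are a description. The level in WT cerebellum fell from 1381 ± 156 CPM for Mbp to 6.81 ± 0.649 CPM for Opalin (SD, n = 4). In WT liver Mog, Mobp, Opalin and Ermn had no count in any library. With 3 counts as the limit that a count of 0 allows in the shallowest of those libraries, Mobp was at least 2531-fold and Ermn at least 359-fold higher in WT cerebellum, and Mog and Opalin at least 190-fold and 61-fold. This limit covers counting error only.

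Some members kept a level in another tissue. Cnp, a phosphodiesterase that keeps cytoplasmic channels open within the myelin sheath, stood at 192 ± 12.2 CPM in WT cerebellum, at 13.7 ± 0.949 CPM in WT liver and at 6.05 ± 0.473 CPM in WT testes. Mag, the adhesion protein of the innermost membrane that faces the axon, stood at 88.0 ± 9.17 CPM in WT cerebellum and at 19.8 ± 0.257 CPM in WT testes, a 4.45-fold difference in mean, but at 0.199 ± 0.0985 CPM in WT liver (SD, n = 4). On the log2 scale of the fit the difference from testes was 1.89 ± 0.19 (SE, adjusted p = 2.08e-09). Mal was 20.03-fold higher in WT cerebellum than in WT testes and Cnp 31.7-fold, against 295-fold for Mbp and 531-fold for Mobp. Against WT liver Cnp was 13.97-fold and Mal 135-fold higher.

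**Figure D1:**
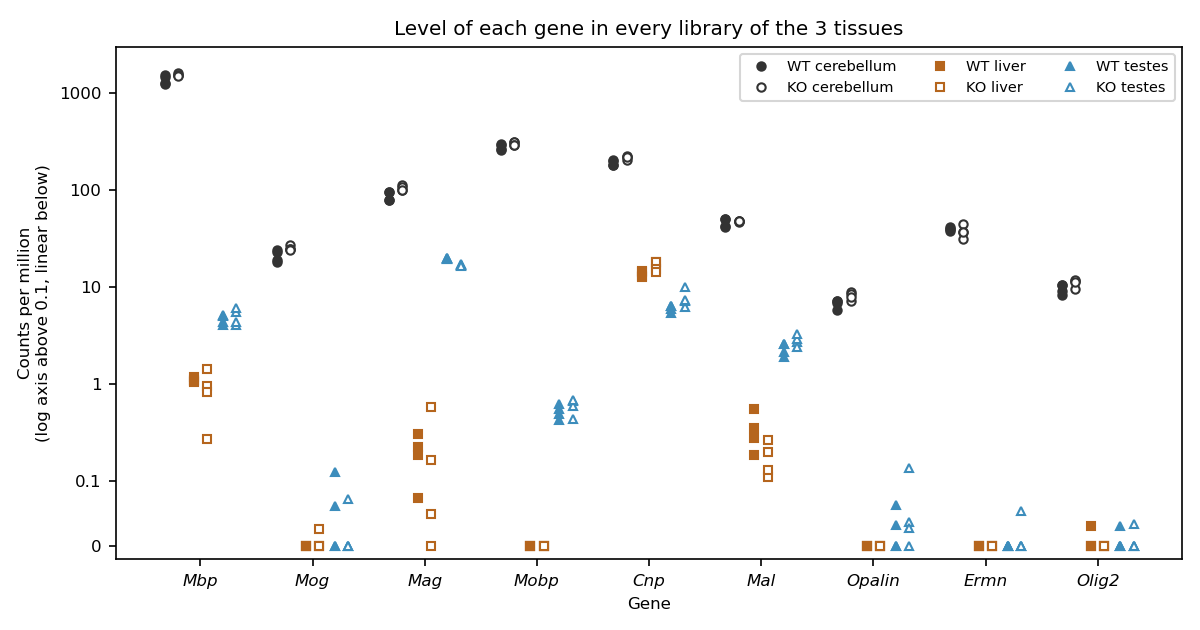
Level of each gene, in CPM, in every library of cerebellum, liver and testes, with filled symbols for WT and open symbols for KO, on an axis that is logarithmic above 0.1 and linear below. Every cerebellum library lies above every library of the other tissues for each of the 9 genes, and the smallest gaps are those of Mag to testes and of Cnp to liver.

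Per length of merged exons, the order in WT cerebellum was Mbp at 163 ± 18.4 CPM per kb, Cnp at 52.7 ± 3.35, Mobp at 41.1 ± 2.97, Mag at 21.6 ± 2.25, Mal at 16.7 ± 1.82, Mog at 12.4 ± 1.65, Ermn at 11.0 ± 0.440, Olig2 at 3.83 ± 0.445 and Opalin at 2.31 ± 0.220 (SD, n = 4). The libraries of neighbours in this order did not overlap, except those of Mog and Ermn, which did. The transcription factor Olig2 and the small membrane protein Opalin were thus the lowest of the group, and the structural proteins Mbp, Cnp and Mobp the highest.

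The sequence before the transcript start was read for 8 of the 9 genes, all but Mbp, from RefSeq on build GRCm38.p6. A 215-base window, from 250 to 36 bases before the RefSeq start, was searched on both strands for ACAAAG, which reads as CTTTGT from the opposite side and is a form of the letters that Sox proteins bind. No second motif was searched. Sox10 and its relative Sox8 are such proteins of this lineage. The letters occurred in 4 of the 8 windows and in 14.5% of the 32851 windows of the same length in the table. These 4 windows are shown because they hold the motif, given in capitals, and because Mag and Cnp are the members whose KO change passed the test below. All are written 5′ to 3′ on the strand of the gene.
Mag, chr7:30914899-30915113, minus strand: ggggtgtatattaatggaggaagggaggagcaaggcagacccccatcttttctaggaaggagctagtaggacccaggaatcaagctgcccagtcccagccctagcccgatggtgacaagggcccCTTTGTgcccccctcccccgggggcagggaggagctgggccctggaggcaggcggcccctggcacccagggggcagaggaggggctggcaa
Cnp, chr11:100574689-100574903, plus strand: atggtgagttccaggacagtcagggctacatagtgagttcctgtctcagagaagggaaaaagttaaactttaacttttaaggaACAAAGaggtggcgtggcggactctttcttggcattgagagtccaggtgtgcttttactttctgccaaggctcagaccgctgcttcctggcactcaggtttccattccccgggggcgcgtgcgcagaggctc
Mobp, chr9:120149492-120149706, plus strand: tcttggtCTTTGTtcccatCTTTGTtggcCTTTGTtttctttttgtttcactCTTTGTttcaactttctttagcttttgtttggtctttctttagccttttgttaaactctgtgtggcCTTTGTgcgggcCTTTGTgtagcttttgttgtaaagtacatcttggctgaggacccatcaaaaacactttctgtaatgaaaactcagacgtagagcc
Opalin, chr19:41077149-41077363, minus strand: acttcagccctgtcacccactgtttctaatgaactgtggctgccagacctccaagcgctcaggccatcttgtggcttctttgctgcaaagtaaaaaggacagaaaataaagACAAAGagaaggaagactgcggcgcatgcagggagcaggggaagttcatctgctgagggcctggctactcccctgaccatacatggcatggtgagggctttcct

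Mag, Cnp and Opalin held the letters 1 time each, beginning 126, 167 and 139 bases before the start. Mag has 3 RefSeq starts in the table, and the one nearest to the 5′ end of the gene in GENCODE was used, 10 bases from it. The window of the second start holds the same copy, 67 bases before that start, and the window of the third holds none. Mobp held them 6 times, all as CTTTGT on the strand shown, the first beginning 243 and the last 120 bases before the start. Mobp's was the 1 window of all 32851 with 6 or more, and 0.113% of windows had 3 or more. The windows of Mog, Mal, Ermn and Olig2 did not hold these letters. A match is a description of the letters and was not tested as a binding site.

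Before the KO comparison, the libraries themselves need a description. Total counts were 16353797 to 24728845 per cerebellum library and 16353797 to 37889615 over all 24. Thumpd1 was at 21.8 to 24.02 CPM in WT cerebellum and at 0 to 2 counts in the KO libraries, so the labels held. In cerebellum neighbouring libraries (1 and 2, 3 and 4, 5 and 6, 7 and 8) were more alike than other pairs by one measure. The mean chi-square of 2 libraries' counts over genes, which is about 1 when they differ by counting error only, was 3.20 to 5.47 for such neighbours and 5.58 to 12.3 for other pairs of a genotype. The median over genes kept this order in WT but not in KO, where it was 1.07 for libraries 5 and 6 and 0.990 for 5 and 8. The study calls the libraries of a group biological replicates, but the labels do not say which came from separate mice, so p-values measure the spread between these libraries, which may be partly technical. Ttr, the main transcript of choroid plexus, split cerebellum libraries along the same lines, at 935 and 962 CPM in WT libraries 1 and 2, 1.09 and 0.816 in WT 3 and 4, 1.87 and 1.96 in KO 5 and 6, and 317 and 312 in KO 7 and 8.

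In cerebellum 2 of the 9 genes rose in KO, Mag 1.205-fold and Cnp 1.14-fold, 7 did not pass the test, and no member was called lower. Neither call held when the counts of neighbouring libraries were summed, a fit with 2 samples per genotype that called 0.234% of all genes higher. With the libraries apart, 3.93% of all 16225 genes tested were called higher and 2.51% lower, so that 2 of 9 stands beside that background of 3.93%. The fitted log2 change was above 0 for 8 of the 9 members and for 48.2% of all genes tested. Its median was 0.19 for the members against -0.01 over all genes. The members were chosen with earlier results of these data known, so this comparison is a description. The unadjusted p was under 0.05 for 5 members, and for 24.2% of all genes. The test was limma-voom after quantile normalization, with Benjamini-Hochberg adjustment over all genes tested. In these bulk samples, more cells of a type and more RNA per cell cannot be told apart.

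Mag (chr7:30899176-30914873 of mm10, minus strand) had 95.3, 96.4, 80.4 and 79.7 CPM in WT libraries 1 to 4 and 113, 102, 107 and 101 CPM in KO libraries 5 to 8. Every KO library lay above every WT library, by a gap smaller than that between the WT pairs. The fitted log2 change was 0.27 ± 0.07 (SE, adjusted p = 0.0316). Such a separation in CPM was seen for 2 members, Mag and Mog, and for 8.79% of all genes tested.

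Mog, an immunoglobulin-like protein of the outermost myelin surface and a target of autoantibodies in demyelinating disease, had 23.0, 24.02, 18.2 and 19.3 CPM in WT libraries 1 to 4. In KO libraries 5 to 8 it had 27.1, 24.6, 24.6 and 24.3 CPM. The KO libraries were all above the WT libraries, though the highest of WT and the lowest of KO were close. The log2 change of 0.22 ± 0.08 (SE) did not pass the test (adjusted p = 0.122).

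Cnp (chr11:100574904-100591729 of mm10, plus strand) had 199, 205, 183 and 180 CPM in WT libraries and 221, 204, 224 and 222 CPM in KO libraries. Only KO library 6 fell within the WT range. The log2 change was 0.19 ± 0.05 (SE, adjusted p = 0.0365), with the smallest SE of the group. The exons of Cnp overlap those of Dnajc7 on the other strand over 154 bases, and because the strand setting of the counting is not given in the sources used here, its counts may include reads of that gene.

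Mbp, the basic protein that zips the cytoplasmic faces of compact myelin and by far the most abundant member, had 1468, 1557, 1267 and 1234 CPM in WT and 1624, 1530, 1537 and 1497 CPM in KO. WT library 2 lay within the KO range, and WT libraries 1, 3 and 4 lay below every KO library. The log2 change of 0.21 ± 0.06 (SE) missed the threshold (adjusted p = 0.0635). It passed with sample quality weights (0.22, adjusted p = 0.0389), and its adjusted p ran from 0.00197 to 0.293 over all alternatives. Mobp, a further basic protein of compact myelin, had 301, 297, 263 and 265 CPM in WT and 316, 316, 291 and 292 CPM in KO. Its groups overlapped, and its log2 change was 0.13 ± 0.05 (SE, adjusted p = 0.160).

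Mal, a proteolipid that helps carry myelin cargo to the membrane, had 50.6, 51.2, 41.6 and 42.6 CPM in WT and 46.7, 48.9, 47.8 and 48.2 CPM in KO. All KO libraries lay between the WT pairs, and the log2 change was 0.02 ± 0.07 (SE, adjusted p = 0.858). Its sign turned to -0.02 without WT library 3 and to -0.01 without WT library 4.

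Opalin, a glycoprotein specific to mature oligodendrocytes, had 7.23, 7.28, 5.88 and 6.83 CPM in WT and 8.93, 7.22, 8.63 and 7.90 CPM in KO. KO library 6 lay within the WT range, and the log2 change was 0.22 ± 0.10 (SE, adjusted p = 0.215). Olig2, the transcription factor that sets the lineage and the one member that precursors also express strongly, had 10.6, 10.6, 9.20 and 8.31 CPM in WT and 9.73, 11.6, 11.9 and 11.3 CPM in KO. KO library 5 was within the WT range, and the log2 change was 0.16 ± 0.10 (SE, adjusted p = 0.319). Both genes had 108 to 262 counts per library, the fewest of the group, and had the widest standard errors.

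Ermn, an actin-binding protein that appears late in myelination, was the member with an estimate below 0. It had 42.2, 39.5, 38.4 and 39.8 CPM in WT and 37.3, 44.6, 31.4 and 37.5 CPM in KO. The KO libraries spread on both sides of the WT libraries, with a coefficient of variation wider than in WT, and the log2 change was -0.12 ± 0.08 (SE, adjusted p = 0.387). The exons of Ermn overlap those of Galnt5 on the other strand over 237 bases.

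**Figure D2:**
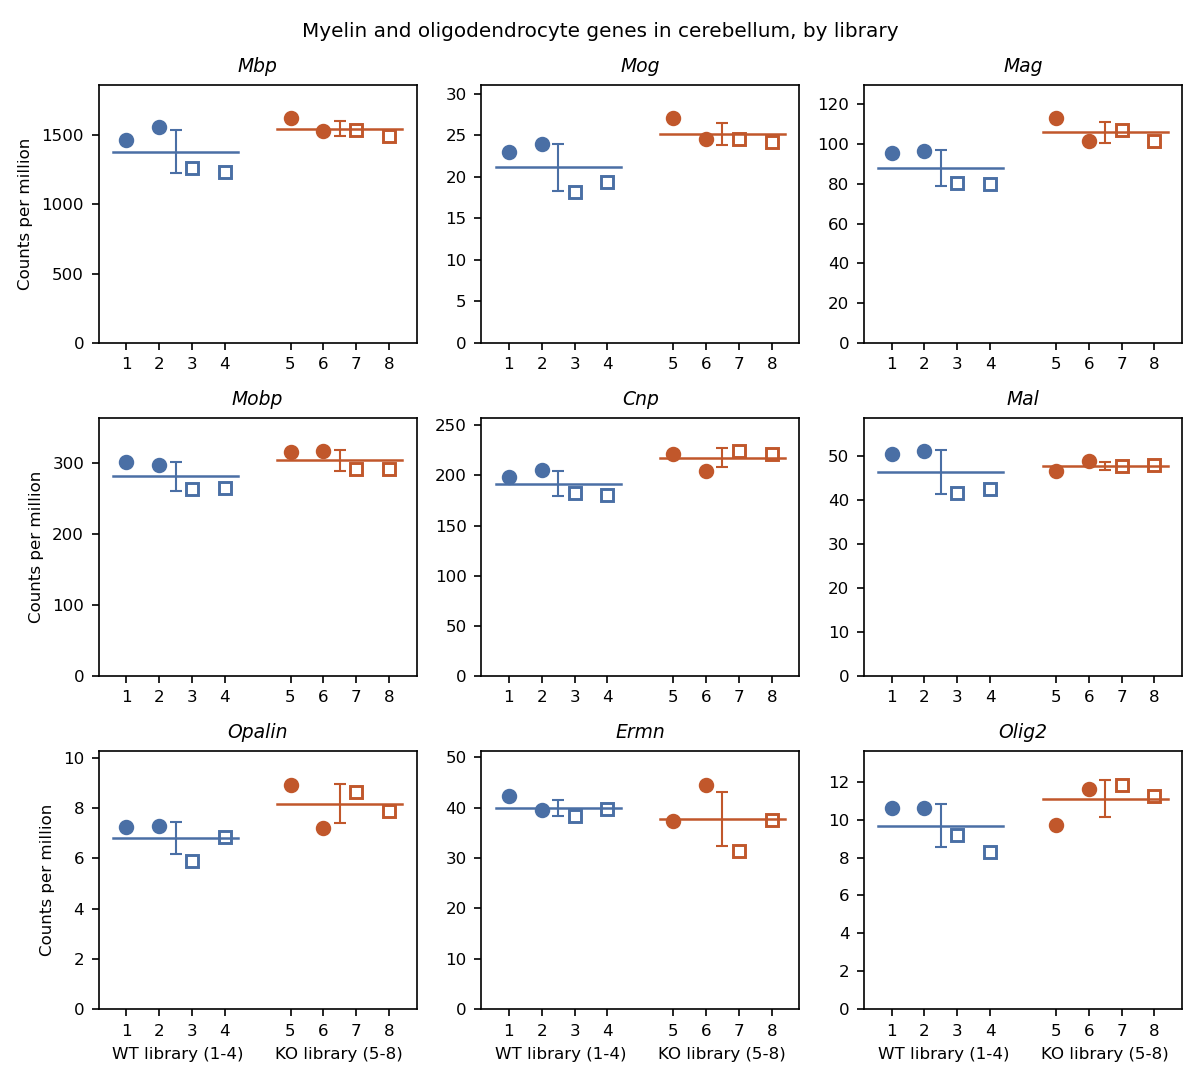
CPM of each gene in the 8 cerebellum libraries, WT 1 to 4 in blue and KO 5 to 8 in orange, with filled circles for the first and open squares for the second pair of neighbours in a group, and lines and bars for the group mean and SD. WT libraries 3 and 4 are the lowest for most genes, and all KO libraries exceed all WT libraries for Mag and Mog.

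The spread within WT followed the neighbours. WT libraries 1 and 2 both exceeded WT libraries 3 and 4 for 8 of the 9 members, all but Ermn. The mean of the first pair was 11.3% higher for Cnp and 25.3% higher for Mog. The share of all genes that separate the WT pairs was not counted, so this describes the libraries and is not a result about the members. The median absolute log2 difference over the 9 members was 0.02 between WT 1 and 2 and 0.04 between WT 3 and 4, but 0.21 to 0.26 between libraries of the 2 WT pairs. Among KO libraries it was 0.14 between 5 and 6, 0.04 between 7 and 8, and 0.04 to 0.12 across the pairs. With the neighbours summed to 2 samples per genotype, 0 of 9 members passed (Mag adjusted p = 0.167, Cnp adjusted p = 0.176), where 0.234% of all genes were called higher. The median log2 change of the members was 0.195 in that fit and 0.193 with the libraries apart. With neighbours as a block, 1 passed (Mag adjusted p = 0.0464, Cnp adjusted p = 0.0558).

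After seeing the data, the KO difference was also fitted in 2 sets of libraries split by choroid plexus content, which tracks those pairs. In the 4 libraries under 100 CPM of Ttr (WT 3 and 4, KO 5 and 6), 5 of 9 members were called higher, Mbp, Mog, Mag, Mobp and Cnp, against 2.01% of all genes. All 9 estimates were above 0 there, with a median log2 change of 0.27. In the 4 libraries over 100 CPM of Ttr (WT 1 and 2, KO 7 and 8), 0 of 9 were called higher, against 2.77% of all genes. There 6 of 9 estimates were above 0, with a median of 0.09. For Mag the log2 change was 0.42 (adjusted p = 0.00379) in the first set and 0.13 (adjusted p = 0.182) in the second, and for Mog 0.43 (adjusted p = 0.0286) and 0.05 (adjusted p = 0.753). Mobp, Mal and Ermn changed sign between the sets. Each set holds 1 pair of neighbours per genotype, so its p-values measure the spread within such pairs. The first set holds WT 3 and 4, the pair that was lower for most members, so its calls are a description. The difference between the sets was not tested, and choroid plexus content and the pairs cannot be told apart.

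**Figure D3:**
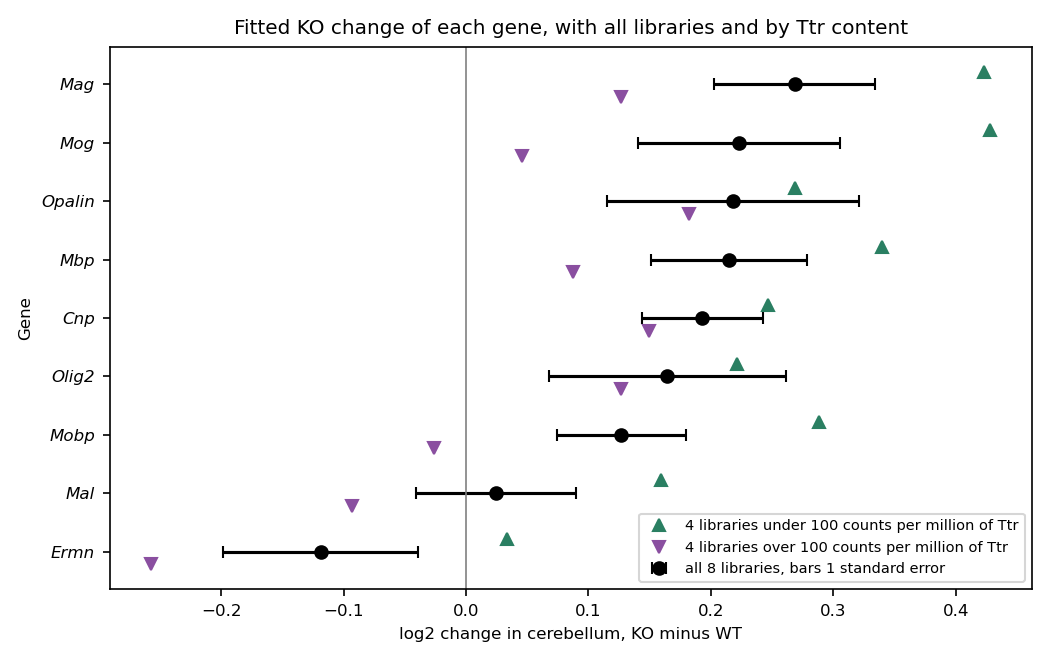
Fitted log2 change in cerebellum, KO minus WT, for each gene with all 8 libraries (black, bars of 1 standard error), in the 4 libraries under 100 CPM of Ttr (green) and in the 4 over it (purple). The green estimates are all above 0, and for each gene the purple estimate is lower than the green one.

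Leaving out single libraries gave 0 to 3 called members. None passed without KO library 5, 7 or 8 or without WT library 3 or 4, 1 (Mag) without WT library 1, and 3 (Mag, Cnp and Mbp) without KO library 6 or WT library 2. The median log2 change of the members in these fits ran from 0.162 without WT library 3 to 0.229 without WT library 2. The share of all genes called in them is not given here. The sum of the 9 members was 2197, 2288, 1906 and 1876 CPM in WT libraries 1 to 4 and 2405, 2289, 2284 and 2241 CPM in KO libraries 5 to 8. WT library 2 was thus level with KO library 6 and above KO libraries 7 and 8.

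Further genes of the lineage were compared in 8 lists of 83 genes in all, of which 82 were tested. In KO cerebellum 5 were called higher and 2 lower, beside 3.93% and 2.51% of all genes in the same fit, and the median log2 change was 0.05 against 0.19 for the 9 members and -0.01 over all genes. The genes called higher were Pllp, Tcf7l2, Sox8, Pcdh15 and Adamts4, and those called lower St18 and Mcam. None of these 7 calls held with neighbouring libraries summed (adjusted p = 0.0681 to 0.208), a fit that called 0.234% of all genes higher and 0.0553% lower, and 6 held with neighbours as a block, all but Pllp.

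Among 8 further proteins of compact myelin and its membrane, Pllp rose and 7 were not called. Pllp, the plasma membrane proteolipid plasmolipin, measured 22.2 ± 2.69 CPM in WT libraries and 27.4 ± 0.578 CPM in KO libraries (SD, n = 4), and its log2 change was 0.29 ± 0.07 (SE, adjusted p = 0.0378). Pmp22, known best from peripheral myelin, had a log2 change of 0.23 ± 0.06 (SE, adjusted p = 0.0502). Cldn11, which forms the tight junctions of the sheath, had 0.11 (adjusted p = 0.432) and the tetraspanin Cd9 0.08 (adjusted p = 0.634).

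Of 16 proteins of noncompact myelin and of contact with the axon, 15 were tested and 0 were called. The smallest p values belonged to Gpr37 (log2 change 0.19, adjusted p = 0.0612), the axonal adhesion protein Cntn2 (0.11, adjusted p = 0.0838), Hapln2 (0.21, adjusted p = 0.102), which links hyaluronan to proteoglycans at the nodes of Ranvier, and the septin Sept4 (0.07, adjusted p = 0.295). The median of the list was 0.02, with 9 of 15 estimates above 0. Of 9 enzymes that make myelin lipids 0 were called, with a median of 0.03. Cers2, the ceramide synthase for very long chains, had a log2 change of 0.12 (adjusted p = 0.124), and the elongase Elovl7 one of -0.24 (adjusted p = 0.244).

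Of the connexins that couple oligodendrocytes to other glia 0 were called. Gjb1 measured 12.1 ± 1.82 CPM in WT libraries and 15.2 ± 0.611 CPM in KO libraries (SD, n = 4), with a log2 change of 0.30 ± 0.09 (SE, adjusted p = 0.0744). Gjc3 had 0.05 (adjusted p = 0.473).

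Of 10 transcription factors 2 were called higher and 1 lower, with a median of 0.18. Tcf7l2, a Wnt effector that newly formed oligodendrocytes express and that thalamic and midbrain neurons express too, measured 10.7 ± 0.771 CPM in WT libraries and 30.0 ± 9.97 CPM in KO libraries, a log2 change of 1.38 ± 0.21 (SE, adjusted p = 0.00259). Sox8 went from 21.6 ± 0.839 to 25.99 ± 0.623 CPM, a log2 change of 0.25 ± 0.05 (SE, adjusted p = 0.0172). St18, a zinc finger protein, went from 173 ± 3.12 to 152 ± 6.51 CPM and fell by 0.18 ± 0.04 on the log2 scale (SE, adjusted p = 0.0169). Nkx6-2 had a log2 change of 0.45 (adjusted p = 0.0589). Sox10 and Myrf, named outside the rule as factors that drive the myelin genes, and Olig1 had log2 changes of 0.20 (adjusted p = 0.132), 0.15 (adjusted p = 0.118) and 0.26 (adjusted p = 0.0836).

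Of 9 genes of newly formed oligodendrocytes 0 were called, with a median of 0.05. Bcas1 had 65.6 ± 5.68 CPM in WT and 76.1 ± 3.53 CPM in KO, a log2 change of 0.20 ± 0.06 (SE, adjusted p = 0.0548), Tmem163 had 0.24 (adjusted p = 0.0577), Enpp6 -0.23 (adjusted p = 0.266) and Gpr17 0.08 (adjusted p = 0.543). Of 11 genes of precursors 1 was called, with a median of 0.01. This was Pcdh15, a protocadherin that also serves hair cells of the ear, which went from 11.2 ± 0.691 to 15.4 ± 2.38 CPM, a log2 change of 0.41 ± 0.10 (SE, adjusted p = 0.0316). Emid1 had -0.18 (adjusted p = 0.249), the proteoglycan Cspg4 0.11 (adjusted p = 0.428) and Tnr 0.05 (adjusted p = 0.475). The summed level of the precursor genes was 827 to 904 CPM in WT and 827 to 942 CPM in KO.

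Of 17 enzymes and receptors of mature oligodendrocytes 1 was called higher and 1 lower, with a median of 0.09. Adamts4, a protease of the extracellular matrix, went from 38.2 ± 1.52 to 48.1 ± 0.967 CPM, a log2 change of 0.32 ± 0.04 (SE, adjusted p = 0.00150). Mcam, an adhesion protein that pericytes and endothelium also make, went from 39.5 ± 1.31 to 32.3 ± 2.39 CPM and fell by 0.30 ± 0.06 on the log2 scale (SE, adjusted p = 0.0117). Trf, the iron carrier transferrin, had a log2 change of 0.12 (adjusted p = 0.0738) and S1pr5 one of 0.18 (adjusted p = 0.157). Enpp2, which choroid plexus also makes in quantity, is named outside the rule because it ran from 83.5 to 683 CPM within WT. Among the called genes, exons of Pllp, Sox8, Adamts4 and Mcam overlap a gene on the other strand and are uncertain for the reason given for Cnp, as are Tfap2d, Zic1, Neurod1 and Pcp2 below.

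**Figure D4:**
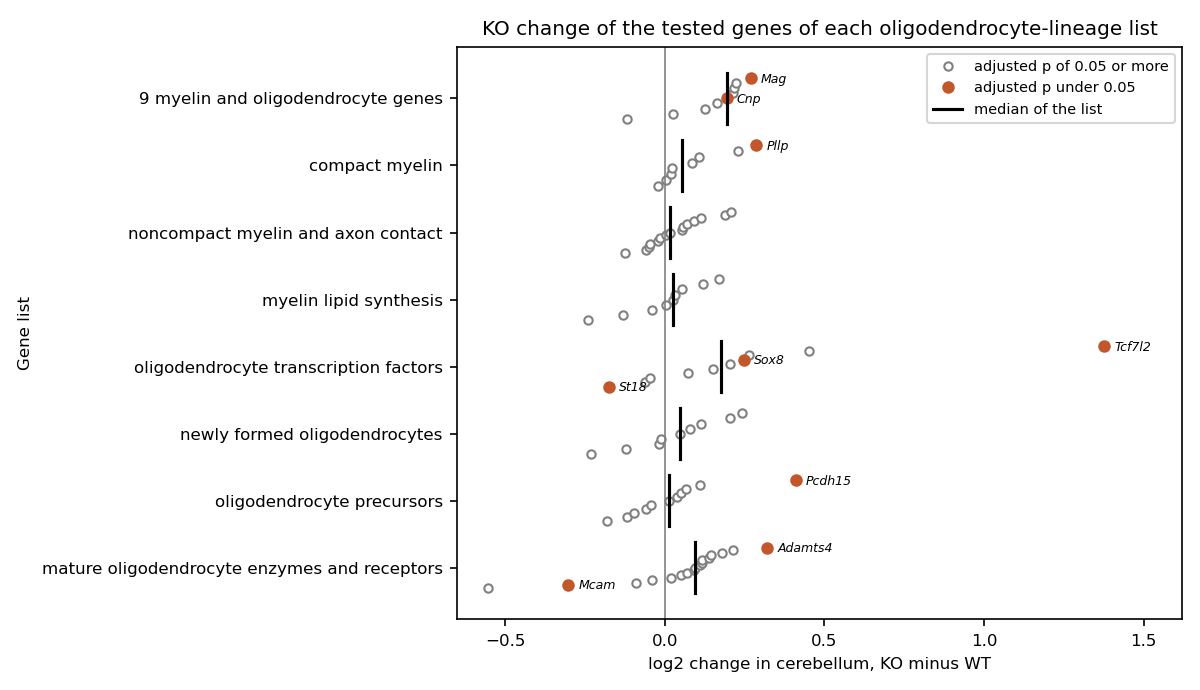
Log2 change in cerebellum, KO minus WT, of each tested gene in the 9 myelin and oligodendrocyte genes and in 7 of the further lists of the lineage, with called genes filled and named and the list median as a bar. The medians of the 7 lists shown lie between 0.01 and 0.18, and most genes of each were not called. The connexins are not drawn, and Gjb1 among them, at 0.30, lies above the median of the 9 genes, 0.19.

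Markers of other cells and regions were compared in the same libraries, where 3.93% of all genes were called higher and 2.51% lower. Their lists gave 14 calls, of which 4 (Tfap2d, Nrgn, Enc1 and Gabra6) held with neighbouring libraries summed. With neighbours as a block 11 held, all but Pcp2, Slc1a6 and Slco1a4. Of 15 midbrain transcription factors and markers 3 were tested. Tfap2d had 0 to 0.102 CPM in WT and 1.05 to 2.08 CPM in KO (adjusted p = 0.000738), and Tal1 0.459 to 1.01 CPM in WT and 1.37 to 2.04 CPM in KO (adjusted p = 0.0160). Both were called higher, but both passed the filter of 1 CPM in 4 libraries through the KO group, which favours such a call. The third was Gata2 with 0.12 (adjusted p = 0.733), 5 of the 15 did not exceed 3 counts in any library, and the list summed to 6.06, 5.26, 3.54 and 3.82 CPM in WT and to 11.1, 10.5, 8.94 and 7.69 CPM in KO. Of 10 forebrain genes 6 were tested and 2 called higher, Nrgn with 3.42 (adjusted p = 0.000951) and Enc1 with 1.71 (adjusted p = 8.59e-05), and the list summed to 168 to 175 CPM in WT and 184 to 211 CPM in KO. Emx1, a transcription factor of the developing cerebral cortex, did not exceed 3 counts in any library. Of 14 hindbrain genes, most of them Hox genes, 0 passed the filter, and they summed to at most 0.613 CPM. The part of tissue from outside the cerebellum in the myelin result was not tested.

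Granule cells, the small neurons that make up most cells of the cerebellum, gave 0 higher and 4 lower of 10 genes. Zic1 fell by 0.21 (adjusted p = 0.00138), Gabra6 by 0.26 (adjusted p = 0.00556) and Neurod1 by 0.22 (adjusted p = 0.00658) on the log2 scale. The estimates were above 0 for 5 of the 10, and the median was -0.02. Their 10 genes summed to 6405 to 6656 CPM in WT and 5907 to 6250 CPM in KO, with no overlap. Of 10 Purkinje cell genes 2 were called higher, Pcp2 (0.24, adjusted p = 0.0355) and Slc1a6 (0.18, adjusted p = 0.0393), and 0 lower, with sums of 7206 to 7678 CPM in WT and 7373 to 7732 CPM in KO.

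Of 10 genes of astrocytes and Bergmann glia 2 were called higher, the GABA transporter Slc6a11 (0.66, adjusted p = 0.0123) and Gfap (0.23, adjusted p = 0.0177), with sums of 2870 to 2968 CPM in WT and 2849 to 3005 CPM in KO. Of 10 genes of endothelium and pericytes 2 were called higher, Vtn (0.35, adjusted p = 0.00203) and Slco1a4 (0.20, adjusted p = 0.0486), and their sums were 287 to 293 CPM in WT and 315 to 334 CPM in KO. Of 10 microglial genes 0 were called and all 10 estimates were above 0, with sums of 85.8 to 99.5 CPM in WT and 101 to 107 CPM in KO. The smallest p was that of Trem2 (0.40, adjusted p = 0.151). Of 10 choroid plexus genes 0 were called, and their sums ran from 19.8 to 1129 CPM in WT and from 24.9 to 380 CPM in KO. Schwann cells, which make the myelin of nerves outside the brain, gave 2 tested genes of 6, Drp2 (0.18, adjusted p = 0.0663) and Ncmap (-0.29, adjusted p = 0.411), and Pmp2, a lipid-binding protein of peripheral myelin, did not exceed 3 counts in any library. The part of these shifts in the myelin result was not tested.

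**Figure D5:**
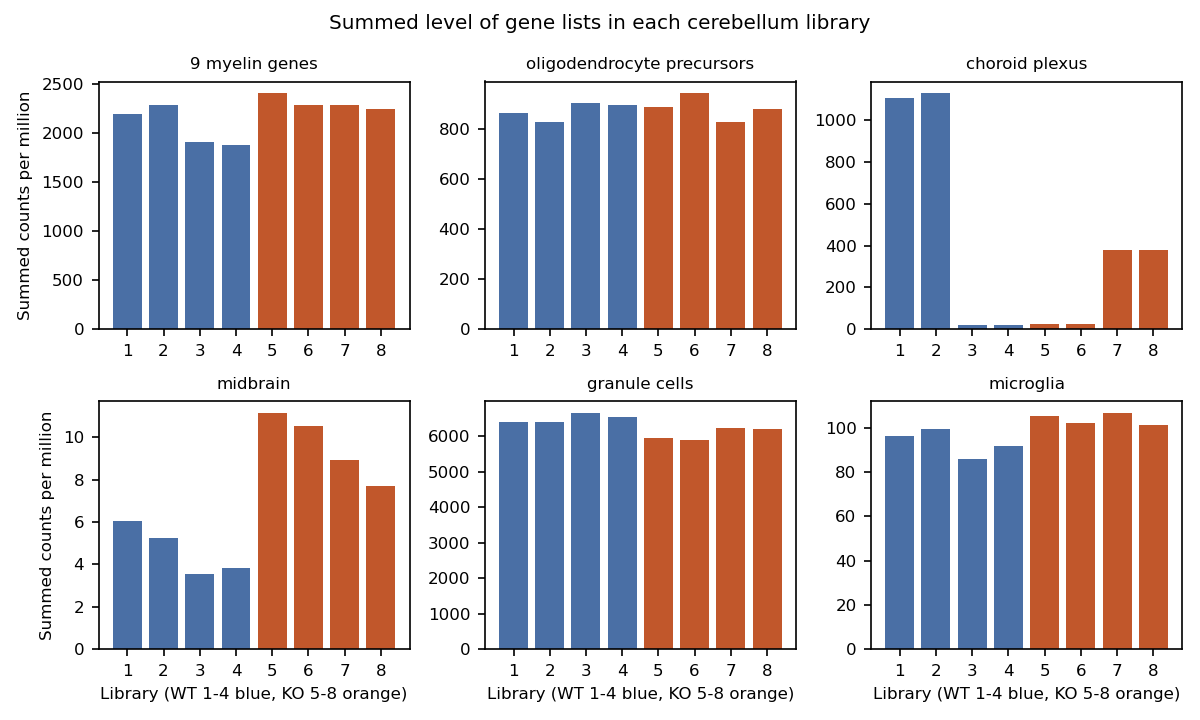
Summed CPM of 6 gene lists in each cerebellum library, WT 1 to 4 in blue and KO 5 to 8 in orange. The 9 myelin genes are lowest in WT libraries 3 and 4, and choroid plexus genes stand out in WT 1 and 2 and in KO 7 and 8. Midbrain, granule cell and microglial genes separate the genotypes without overlap.

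The genes most like the members over the 8 cerebellum libraries were sought among 12376 genes with a mean of at least 5 CPM, by the Pearson correlation of log2 CPM with the mean standardized level of the 9 members. The first 10 were Tuba1b, Scamp2, Qdpr, Ptdss1, Timp2, Nutf2-ps1, Adgrg1, Tmem39a, Fbln5 and Gna12, with r from 0.988 to 0.964. Nutf2-ps1 is a near copy of Nutf2, with which it may share reads, and Qdpr is in the list of mature oligodendrocyte enzymes. Over the 75 genes of the 8 lineage lists that reached this level the median r was 0.53, against 0.06 over all genes compared. The libraries share the pair structure described above, and no p is given.

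In testes Mag moved the other way. It had 19.6, 19.9, 19.6 and 20.1 CPM in WT libraries 1 to 4 and 16.9, 17.5, 16.9 and 16.5 CPM in KO libraries 5 to 8, so that every KO library lay below every WT library, as for 9.8% of all genes tested in testes. Mag fell by 0.33 ± 0.07 on the log2 scale (SE, adjusted p = 0.00843). It was 1 of 4 members tested there, and 10.7% of the 19329 genes tested in testes were called lower. The call was lost with neighbouring libraries summed to 2 samples per genotype (adjusted p = 0.172). Over all 15 alternatives the log2 change of Mag in testes ran from -0.352 to -0.284, and 14 of them called it.

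The other 3 members tested in testes were not called. Cnp had 5.44 to 6.46 CPM in WT and 6.27 to 10.02 CPM in KO (log2 change 0.24 ± 0.13, SE, adjusted p = 0.192). Mal had 1.92 to 2.61 CPM in WT and 2.40 to 3.29 CPM in KO (0.18 ± 0.14, SE, adjusted p = 0.381), and Mbp 4.08 to 5.15 and 4.13 to 6.19 CPM (-0.02 ± 0.14, SE, adjusted p = 0.912). Mobp was at 0.435 to 0.692 CPM over all 8 testes libraries, and Mog, Opalin, Ermn and Olig2 at 0 to 4 counts per library.

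In liver 2 members were tested and 0 called, where 5.91% of 12816 genes were called in either direction. Cnp had 13.1, 12.7, 14.4 and 14.6 CPM in WT and 18.1, 18.1, 15.5 and 14.2 CPM in KO, a log2 change of 0.24 ± 0.12 (SE, adjusted p = 0.280). Its KO libraries 5, 6 and 7 were above all WT libraries and KO 8 was within their range. Mbp had 1.07 to 1.18 CPM in WT and 0.276 to 1.45 CPM in KO, a log2 change of -0.44 ± 0.31 (SE, adjusted p = 0.429). Mag and Mal stayed at 0 to 22 and 2 to 15 counts per library. The remaining members had 0 or 1 count in each liver library.

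Whether the KO effect differed between tissues was tested over all 24 libraries. Of the members that passed the filter in both tissues, 0 of 2 were called against liver (2.49% of 22629 genes) and 0 of 4 against testes (6.12%). For Mag the KO effect in cerebellum exceeded that in testes by 0.53 ± 0.27 on the log2 scale (SE, adjusted p = 0.256). This fit kept genes that are absent from a tissue. In simulated data it recovered 45.5% of changes of 1 on the log2 scale, and 18.8% of its calls were false. Those libraries were independent with the same spread for every gene, and the changes were larger than that of Mag. Its power for Mag was thus not tested. The fit was then restricted to both tissues and to the 13753 genes that passed the filter in each, a choice made after seeing the data. There the difference for Mag was 0.60 ± 0.10 (SE, adjusted p = 0.000987), 1 of 4 members was called, and 19.5% of genes were. DESeq2 on all 24 libraries also called it (0.64, adjusted p = 2.49e-06), whereas edgeR did not (0.53, adjusted p = 0.114). For Cnp the KO effect in cerebellum differed from that in liver by -0.05 ± 0.13 and from that in testes by -0.13 ± 0.16 (SE, adjusted p = 0.962 and 0.691).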

How the data were processed

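RNA-seq libraries of cerebellum, liver and testes, 4 per genotype, came from a stranded kit for total RNA, with rRNA depleted. The authors aligned reads with STAR and deposited RSEM expected counts per gene on mm10 with GENCODE M21, not normalized; versions and the strand setting are not given in the sources used here. Rows were found by symbol; 0 columns were left unmatched. Of 216 member values, 1 was not whole. Each tissue was fitted with limma 3.58.1 (voom, quantile normalization, R 4.3.3), as the study's methods state, on genes with at least 1 CPM in at least 4 libraries, with Benjamini-Hochberg adjustment and a threshold of 0.05, two-sided. Contrasts between tissues used TMM factors (edgeR 4.0.16) on genes passing in any tissue. Alternatives were edgeR, DESeq2 1.42.0 (both on rounded counts), TMM, no filter, sample weights and leaving out each library. The fits by neighbouring libraries, by Ttr and on genes passing in both tissues were added after seeing the data. Members and lists were chosen with earlier results of these data known. All members were named; from each lineage list, the called genes and up to 4 with the smallest p; from other lists, up to 3; some genes that this rule or the lists hold are not reported here. On simulated data with 200 genes changed by 1 on the log2 scale, 94.5% were recovered in cerebellum (4.06% of calls false), 98% in liver and 96% in testes; for cerebellum against testes 45.5% (18.8% false), and 83.9% on genes passing in both tissues. The simulated libraries were independent, without pairs of neighbours. The labels do not say whether a replicate number marks the same mouse in each tissue. Of 24 same-number pairs across tissues, 6 correlated above 0.1, and the main contrasts between tissues were fitted without pairing. Figures were drawn with matplotlib.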

Additional observations from a re-analysis of the deposited data

Results flagged for a closer look

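Mag was the one member whose KO libraries lay all on one side of WT in cerebellum and all on the other side in testes, among 4 members tested in both. Over all 13753 genes that passed in both tissues, 2.25% lay on opposite sides in this way. The KO effect in cerebellum exceeded that in testes by 0.60 on the log2 scale where only genes passing in both tissues were fitted, and by 0.53, short of the threshold, in the planned fit over all 24 libraries. In 33 groups of 4 libraries with enough counts, 2 held a library far from the other 3 by Dixon's test, and chance gives about 1 in 20. Mog in KO cerebellum library 5 had 27.1 CPM beside 24.3 to 24.6 CPM in the others. Cnp in KO cerebellum library 6 had 204 CPM beside 221 to 224 CPM.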

How the results depend on the processing

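In cerebellum 2 members were called higher, against 1 with edgeR and with neighbouring libraries as a block, 3 (Mag, Cnp and Mbp) with sample quality weights, 0 with no filter on low counts, with neighbouring libraries summed and in the libraries over 100 CPM of Ttr, 5 in those under it, and 0 to 3 when single libraries were left out. The unfiltered fit tests more genes and the summed fit has 2 samples per genotype. The cause of these shifts and of the others was not tested. In testes 1 member was called lower, and 0 with neighbouring libraries summed. The KO effect in cerebellum against testes gave 1 called member (Mag) with DESeq2 and on genes passing in both tissues, and 0 otherwise. On genes passing in both tissues 2 members could be tested against liver and 4 against testes in WT, and all 2 and 4 were higher in cerebellum. Estimates that changed sign were Mobp in cerebellum (-0.026 over 100 CPM of Ttr), Mal (-0.093 there, and -0.022 to 0.072 without single libraries), Ermn (0.034 under 100 CPM of Ttr) and Mbp in testes (0.048, 0.043 and 0.035 with edgeR, DESeq2 and TMM, and -0.122 to 0.061 without single libraries), none of them called in any fit but Mobp under 100 CPM of Ttr. The median of all genes moved by under 0.1 under each scaling. With the replicate number as a block the contrasts between tissues gave 0, 0, 9 and 9 called members, as without it. These counts include members that did not pass the filter in both tissues. The labels do not say whether a number marks the same mouse in each tissue. In liver Mobp, Opalin and Ermn had 0 counts in all 8 libraries, and Mog, Mag, Mal and Olig2 had 0 to 22 counts per library, too few for the filter.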
